A study of Mus musculus with 5 samples.

Results

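The lysosome is the acidic compartment in which macrophages degrade what they take up, including lipoproteins and dead cells in the atherosclerotic plaque. Its soluble hydrolases are made as precursors and work at low pH, its membrane is lined by heavily glycosylated proteins, and its acid is supplied by the V-ATPase, a rotary proton pump with a V1 sector that hydrolyses ATP in the cytosol and a V0 sector that carries protons through the membrane. The transcription factor TFEB binds a short DNA element, the CLEAR element, near the start of many lysosomal genes.

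The 50 genes described here encode such proteins and were chosen by name from a list, of 55487 genes in the deposited table. They comprised 12 cathepsins, 3 other proteases and protease inhibitors, 10 glycosidases, 8 lipid and phosphate hydrolases and their activators, 6 membrane proteins, the transcription factor TFEB, 5 V0 subunits and 5 V1 subunits of the V-ATPase. All 50 symbols were found in the table. They were measured by RNAseq in macrophages (viable CD45+ F4/80+ cells per the labels, also CD11b+ per the study's methods) sorted from the aortas of male mice that received chow for 8 weeks and a Western diet for the next 10 weeks.

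Zeb1WT/ApoeKO mice carried unrecombined floxed *Zeb1* alleles and gave 2 libraries, and Zeb1∆M/ApoeKO mice were bred to delete *Zeb1* in myeloid cells and gave 3. Both genotypes were *Apoe* knockouts, which makes mice on this diet prone to atherosclerosis, so no group with intact *Apoe* was compared. Cre was driven by *Lyz2* (LysM), which is active in macrophages, monocytes and neutrophils alike. Macrophages of 3 mice were mixed per genotype. The study's methods also describe libraries in triplicate, whereas the labels hold 2 for Zeb1WT/ApoeKO. The study describes its replicates in general as biologically independent, but neither the labels nor the RNAseq methods say which mice went into which library, so p-values measure the spread between these libraries, part of which may be technical. In sorted bulk RNA, fewer cells of a type and less RNA per cell cannot be told apart.

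Library quality differed before any gene was compared. Total counts ranged from 20118545 to 50649912, and a floor of 3 counts, taken as the least that can be told from 0, was 0.0592 to 0.149 CPM (counts relative to library size); floors and intervals cover counting error only, since amplified reads are not independent molecules. Zeb1∆M/ApoeKO replicate 1 stood apart, with 20919 genes counted at least once against 7395 to 10689 in the others, but with 870 genes at 100 counts or more against 1714 to 4421. Zeb1WT/ApoeKO replicate 1 had the next fewest genes at that level, 1714. *Zeb1* itself had 0 counts in 4 libraries and 22 in Zeb1∆M/ApoeKO replicate 1, so it did not check the genotype labels, and the genotypes named here are those of the labels. *Apoe*, knocked out in all mice, had 48 and 31 counts in the Zeb1WT/ApoeKO and 86, 0 and 4 in the Zeb1∆M/ApoeKO libraries, above the floor in 4 of 5. Of 11 macrophage markers, 8 and 11 reached 100 counts in the Zeb1WT/ApoeKO libraries and 5, 10 and 10 in the Zeb1∆M/ApoeKO libraries. *Lyz2* had at least 161607 counts in each library, whereas *Adgre1*, which encodes the F4/80 antigen of the sort, had 1068 to 38190. *Itgam*, which encodes CD11b, had 441 and 3074 counts in the Zeb1WT/ApoeKO and 0, 33 and 1988 in the Zeb1∆M/ApoeKO libraries.

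Genes of other cells were present too. The summed level of 6 neutrophil markers was 1130 to 3590 CPM (by total counts) in the Zeb1WT/ApoeKO and 138 to 1500 CPM in the Zeb1∆M/ApoeKO libraries, with *Ly6g* at 1 count or none. That of 6 T cell markers was 10.6 to 3660 and 0.862 to 986 CPM, and *Cd4* was at 0 except in Zeb1WT/ApoeKO replicate 2. The haemoglobin gene *Hba-a1* had 60292 counts in Zeb1∆M/ApoeKO replicate 1 and 0 in the other libraries. Of 4 B cell markers *Ighm* had up to 73037 counts, in Zeb1∆M/ApoeKO replicate 3, and *Cd79a* had 0 in all libraries. Of 5 fibroblast markers *Dcn* had 19005 counts in Zeb1∆M/ApoeKO replicate 2 and at most 1 elsewhere. Of 3 adipocyte markers *Fabp4* had 9170 and 1793 counts in the Zeb1WT/ApoeKO and 30457, 0 and 554 in the Zeb1∆M/ApoeKO libraries. *Adipoq* had at most 2 counts and *Plin1* at most 4. Of 4 endothelial markers *Kdr* had 1455 counts in Zeb1WT/ApoeKO replicate 1 and at most 6 elsewhere, and *Cdh5* had 0 in all libraries. *Pecam1* had 2487 counts in Zeb1WT/ApoeKO replicate 2 and 2628 in Zeb1∆M/ApoeKO replicate 3. Smooth muscle markers summed to at most 0.451 CPM. The part of these cells in the values that follow was not tested.

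The promoters of the lysosomal genes were searched for letters from the centre of the CLEAR element, because TFEB is known to act through this element. RefSeq windows of GRCm38.p6, 250 bases before to 50 bases after a transcript start, were available for 43 of the 50 genes. The E-box CACGTG was found in at least 1 window of 15 of these (34.9%), against 8.09% of all 27018 genes with windows. The longer centre of the CLEAR element, TCACGTGA, which contains that E-box, was found in 7 (16.3%), against 1.13% of all genes. Both words read the same on either strand, and the windows were matched as plain letters. The stretches that hold TCACGTGA are shown with it in capitals, 5′ to 3′ on the strand of the gene, since they mark which members hold this centre. The full element was not searched for.
*Ctsa*, chr2:164833758-164833786, + strand, 2 copies, the first from 13 bases before the start: tgTCACGTGAtgcagatgcTCACGTGAcc
*Ctsd*, chr7:142387908-142387937, − strand, 99 bases before the start: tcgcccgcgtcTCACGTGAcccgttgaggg
*Gla*, chrX:134601215-134601244, − strand, 228 bases before the start: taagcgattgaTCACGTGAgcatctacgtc
*Gla*, chrX:134601182-134601211, − strand, 195 bases before the start: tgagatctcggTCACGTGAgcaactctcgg
*Mcoln1*, chr8:3500462-3500491, + strand, 46 bases before the start: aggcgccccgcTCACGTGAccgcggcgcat
*Atp6v0d1*, chr8:105566050-105566079, − strand, 4 bases before the start: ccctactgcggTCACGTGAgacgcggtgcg
*Atp6v0e*, chr17:26676387-26676416, + strand, from base 3 of the transcript: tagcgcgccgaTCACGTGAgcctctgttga
*Atp6v1a*, chr16:44139373-44139402, − strand, 132 bases before the start: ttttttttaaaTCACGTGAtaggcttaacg

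By class, TCACGTGA was present in 2 of 9 cathepsins with a window, 1 of 10 glycosidases, 1 of 6 membrane proteins, 2 of 4 V0 and 1 of 3 V1 subunits, and in none of the 7 lipid and phosphate hydrolases. The shorter CACGTG was also absent from the windows of those 7. A match describes the letters of a window and not an occupied site, and binding was not measured.

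Lysosomal genes were abundant in these cells. Together the 50 took 2.01% of the counts of Zeb1WT/ApoeKO replicate 1 (95% Wilson interval 2.0 to 2.013%) and 3.7% of replicate 2 (3.696 to 3.709%). In Zeb1∆M/ApoeKO replicates 1, 2 and 3 they took 3.36% (3.353 to 3.367%), 3.19% (3.184 to 3.195%) and 3.82% (3.817 to 3.828%). The shares of the genotypes overlapped, since the second Zeb1WT/ApoeKO library lay within the Zeb1∆M/ApoeKO range.

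The number of members detected also differed between libraries. At least 100 counts were reached by 23 and 39 of the 50 members in the Zeb1WT/ApoeKO libraries and by 9, 31 and 36 in the Zeb1∆M/ApoeKO libraries. At 0 counts were 20 and 8 members, and 6, 14 and 9 members. In Zeb1∆M/ApoeKO replicate 1, 35 members had between 1 and 99 counts, and *Cst3*, *Ctss* and *Atp6v0e* alone held 98.0% of the counts of all members. In the other libraries the top 3 members held 43.2 to 58.5%.

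**Figure D1:**
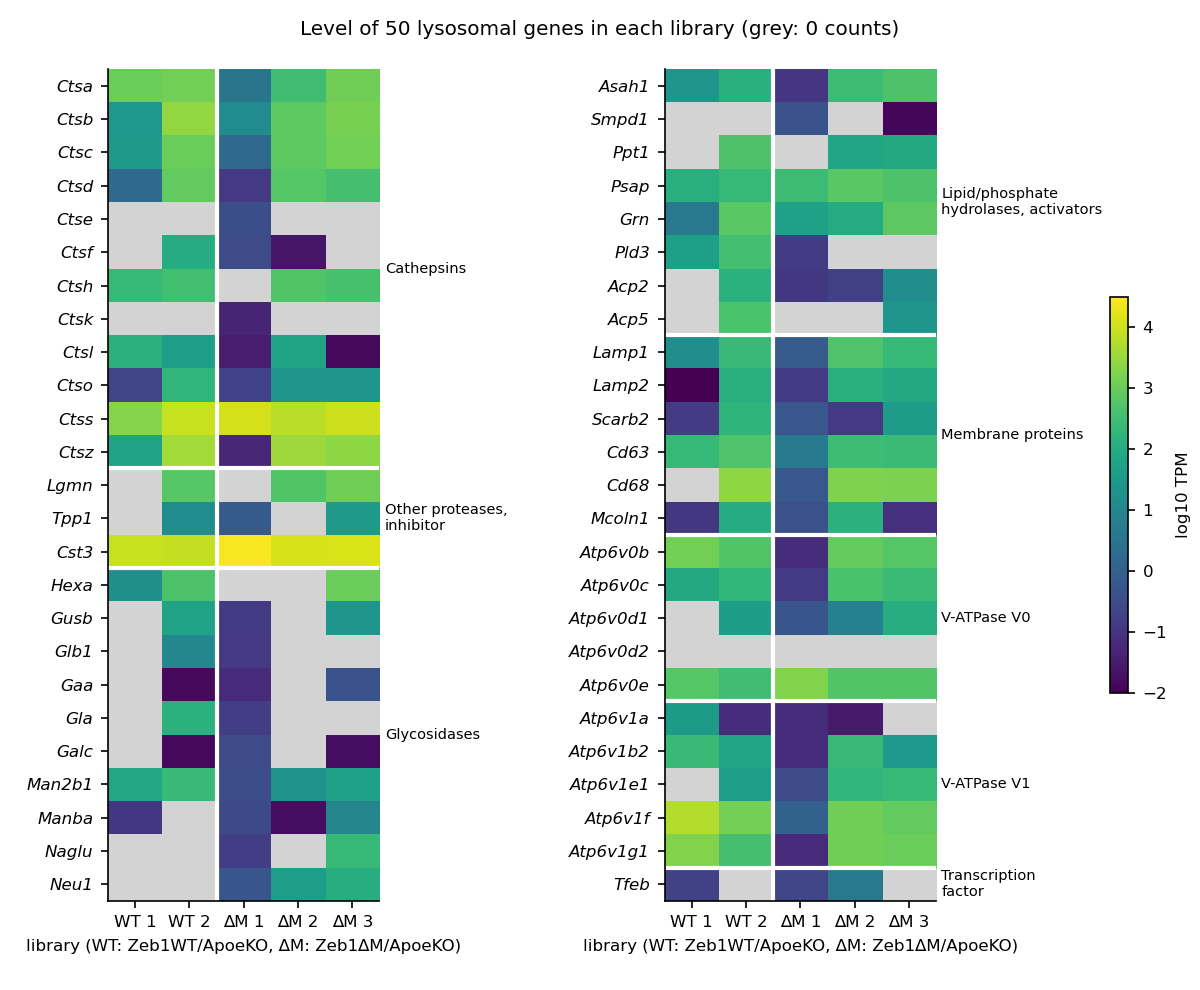
Level of each of the 50 lysosomal genes (rows, grouped by class) in the 5 libraries (columns), as log10 of TPM (counts divided by exon length and scaled to a common sum), with genes at 0 counts in grey. *Cst3* and *Ctss* are bright in all 5 columns, the Zeb1∆M/ApoeKO replicate 1 column is dark for most other genes, and Zeb1WT/ApoeKO replicate 1 holds most grey cells, 20 of 50.

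Of the 44 members that reached 100 counts in any library, 9 did so in all 5 libraries (20.5%). Among all 7341 genes that reached 100 counts anywhere, 4.07% did so. These 9 were *Ctsa*, *Ctsb*, *Ctsc*, *Ctss*, *Cst3*, *Psap*, *Grn*, *Cd63* and *Atp6v0e*. At the other end, 7 members (15.9%) reached 100 counts in a single library, against 48.8% of all such genes. The members were also more abundant, with a median highest count of 24000 against 4760, and the part of abundance in their broader detection was not tested.

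Even so, a strong signal in one library was often absent from the next. Of members with at least 1000 counts in a library, on average 11.8% were at or under the floor of 3 counts in a second library of their genotype (0 to 27.8% over 8 ordered pairs of libraries). Between genotypes this mean was 14.0% (0 to 33.3% over 12 pairs). For all genes the means were 32.1% and 33.0%, so loss of a gene between libraries was about as common within a genotype as between them.

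**Figure D2:**
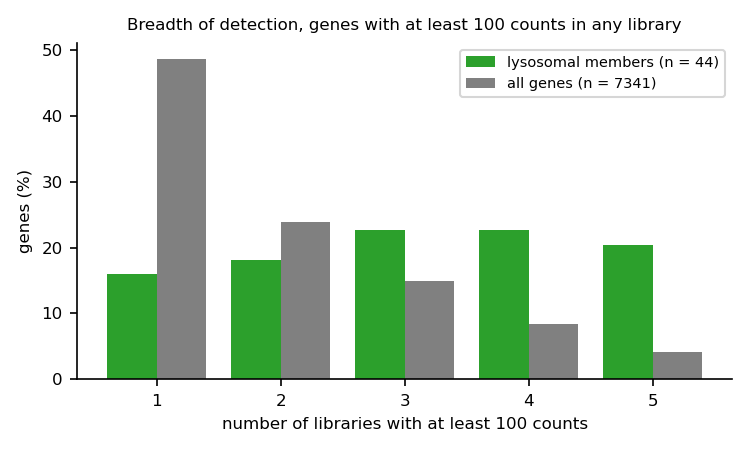
Percentage of genes (y axis) that reached 100 counts in exactly 1 to 5 libraries (x axis), among genes that reached it in any library, for the lysosomal genes (green, n = 44) and all genes (grey, n = 7341). In all 5 libraries the values are 20.5% and 4.07%, and in a single library 15.9% and 48.8%.

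The genotypes were then compared to ask whether lysosomal genes differ in expression between libraries labelled Zeb1WT/ApoeKO and Zeb1∆M/ApoeKO. Of the 50 members, 40 passed the filter on low counts and were tested with edgeR's quasi-likelihood test, and 0 had an adjusted p under 0.05, where 0.0% of all 7905 genes tested did. At an unadjusted p under 0.05 there were 0 members and 1.09% of all genes. DESeq2 called 1 of the 39 members to which it gave an adjusted p, *Neu1*, beside 12.1% of all genes. Limma-voom with sample quality weights called 2 of 40, *Neu1* and *Pld3*, beside 2.96% of all genes. The common dispersion, the squared coefficient of variation between replicates beyond counting noise, was 6.44.

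Of the 40 tested members, 19 had a higher and 21 a lower fitted level in Zeb1∆M/ApoeKO macrophages, with a median log2 fold change of −0.08. Across all genes tested this median was 0.78, and it moved with the scaling, to 1.24 with RLE size factors and 0.29 with upper-quartile normalization. The members' median was 0.08 with RLE and −0.76 with upper quartile, so its sign depended on the scaling, and it lay below the median of all genes under these 3 scalings. This order turned in other settings, with 0.39 for the members and 0.14 for all genes without Zeb1∆M/ApoeKO replicate 1, and 0.99 and −0.3 with limma-voom. The 10 members that did not pass the filter were *Ctse*, *Ctsk*, *Glb1*, *Gaa*, *Gla*, *Galc*, *Naglu*, *Smpd1*, *Atp6v0d2* and *Atp6v1a*.

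The levels of 6 tested members did not overlap between the genotypes, *Cst3*, *Neu1* and *Psap* being higher in all Zeb1∆M/ApoeKO libraries and *Man2b1*, *Pld3* and *Atp6v1f* lower. These are 3 of 40 in each direction, beside 6.68% of all genes tested that did not overlap and were higher and 4.54% that were lower, a share near the background. Without overlap under TMM, total-count, RLE and upper-quartile scaling alike were *Neu1*, *Pld3* and *Man2b1*. *Psap* overlapped under upper quartile, *Cst3* under RLE and upper quartile, and *Atp6v1f* under all scalings but TMM, while *Cd63* became lower without overlap under RLE and *Ctsb* under upper quartile.

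**Figure D3:**
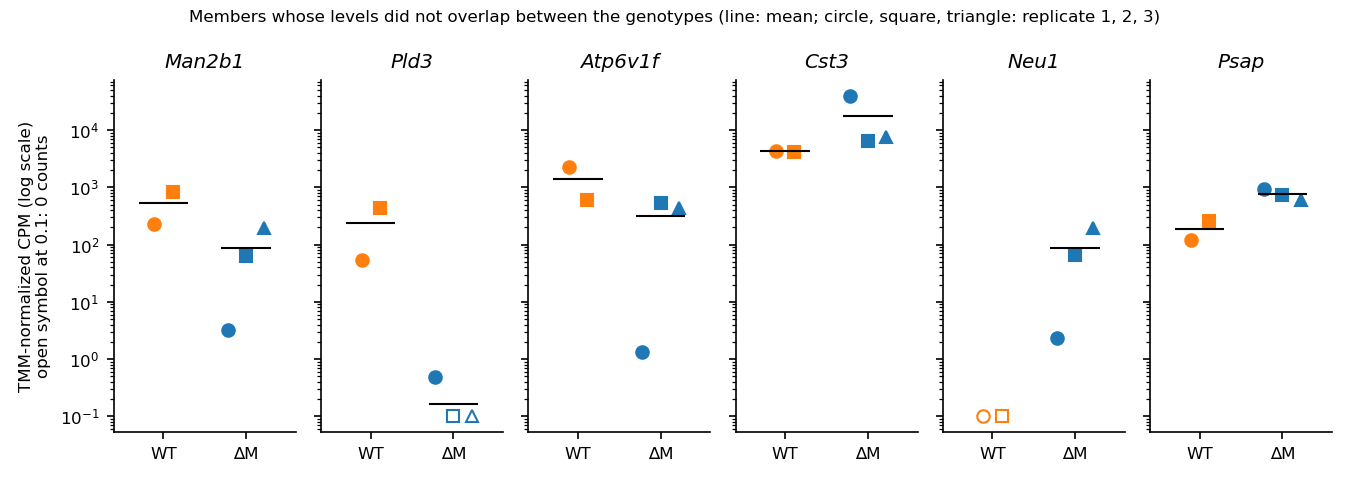
TMM-normalized CPM (log axis) of the 6 genes whose levels did not overlap between Zeb1WT/ApoeKO (WT, orange) and Zeb1∆M/ApoeKO (∆M, blue) libraries, with 1 point per library, its shape marking the replicate, and a line at the mean; open symbols at the foot are 0 counts. For *Man2b1*, *Atp6v1f* and *Neu1* the lowest blue point is replicate 1, and for *Cst3* that replicate is the highest.

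In the paragraphs on each class, counts are given first for Zeb1WT/ApoeKO replicates 1 and 2 and then for Zeb1∆M/ApoeKO replicates 1, 2 and 3. Levels of different genes are compared only as TPM, which divides by exon length.

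Cathepsins are the main lysosomal proteases. *Ctss*, cathepsin S, a cysteine protease that trims the invariant chain of MHC class II and degrades elastin, had the highest mean TPM of the class, 7950. It had 28660 and 169426 counts, and 228337, 155833 and 315973 counts. All 5 libraries therefore held it at high level, and the genotypes overlapped. Its log2 fold change came to 1.69 ± 1.84 (SE, adjusted p = 1), and 0.63 without Zeb1∆M/ApoeKO replicate 1. The gene lies at chr3:95526786-95556403 (GRCm38).

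*Ctsb*, cathepsin B, a cysteine protease with endopeptidase and exopeptidase activity, had 1836 and 242975 counts, and 1187, 79596 and 202396 counts. *Ctsz*, a carboxypeptidase, had 860 and 83222 counts, and 1, 83559 and 83169 counts. Both were high in replicates 2 of both genotypes and in the third Zeb1∆M/ApoeKO library, and low in both replicates 1. *Ctsc*, the dipeptidyl peptidase that activates granule serine proteases, had that pattern too, with 1856 and 90758 counts and 135, 74162 and 176147 counts.

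*Ctsd*, the aspartic protease of the lysosome, had 44 and 29639 counts, and 4, 24838 and 20147 counts. Again the replicates 1 were low and the genotypes overlapped. The promoter window of *Ctsd* held TCACGTGA. Of the 75-base stretches of *Ctsd* transcripts, 31.3% occur also in the overlapping gene model *Gm49369*, which had at most 18 counts. *Ctsa*, the serine carboxypeptidase that also protects neuraminidase and β-galactosidase, had 53411 and 85003 counts, and 216, 26285 and 133221 counts. It was thus high in 4 libraries, and its exons overlap those of *Pltp* and *Neurl2* on the other strand, from which an unstranded kit cannot separate all reads.

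*Ctsh*, an aminopeptidase, had 10654 and 22128 counts, and 0, 40300 and 42175 counts. *Ctsl*, a broad endopeptidase, had 9865 and 4048 counts, and 3, 6964 and 2 counts, and 24.6% of its stretches are shared with other genes. Neither separated the genotypes, since Zeb1∆M/ApoeKO replicate 2 lay with the Zeb1WT/ApoeKO libraries for *Ctsl*. *Ctso* had 12 and 13680 counts, and 15, 2180 and 2878 counts.

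The remaining cathepsins were rarely seen. *Ctsf* had 7456 counts in Zeb1WT/ApoeKO replicate 2 and at most 23 in any other library. *Ctse*, an aspartic protease of immune and gastric cells, had 16 counts in Zeb1∆M/ApoeKO replicate 1 and 0 elsewhere. *Ctsk*, the collagenase of osteoclasts, had a single count, in the same library. Of the 10 cathepsins tested, 3 had a higher and 7 a lower fitted level, with a median log2 fold change of −0.62, and 0.14 without Zeb1∆M/ApoeKO replicate 1. Their summed level was 3620 and 19700 TPM, and 12000, 13300 and 17500 TPM, so that the genotypes overlapped.

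**Figure D4:**
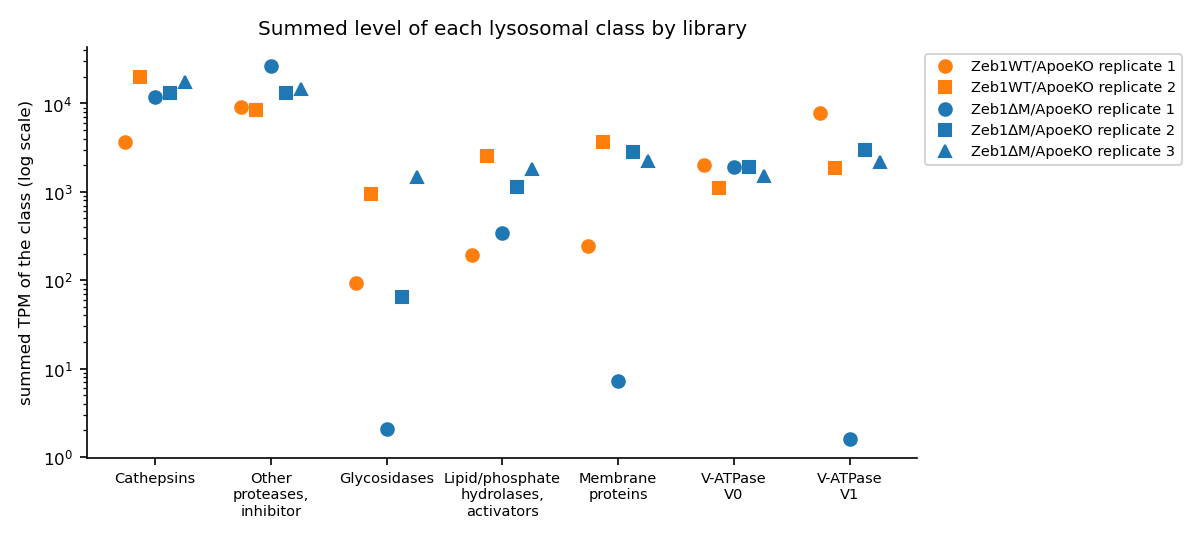
Summed TPM (log axis) of each class of lysosomal genes (x axis) in the 5 libraries, colour marking the genotype and shape the replicate. Zeb1∆M/ApoeKO replicate 1 (blue circle) lies far below the other libraries for glycosidases, membrane proteins and V1, at 2.09, 7.22 and 1.6 TPM, but among them for cathepsins and V0.

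Cystatin C, encoded by *Cst3*, is a secreted inhibitor of cysteine cathepsins and was the most abundant member, with a mean of 14000 TPM. It had 120662 and 141078 counts, and 475684, 272457 and 386342 counts. In TMM-normalized CPM this was 4370 and 4090 (mean 4230 ± 194, SD, n = 2), and 39300, 6370 and 7690 (mean 17800 ± 18600, SD, n = 3). All 3 Zeb1∆M/ApoeKO libraries lay above both Zeb1WT/ApoeKO libraries, with replicate 1 far above the rest. Its log2 fold change came to 2.07 ± 1.61 (SE, adjusted p = 1), and 0.51 without that library. *Cst3* lies at chr2:148871722-148875692.

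*Lgmn*, the asparagine endopeptidase that processes cathepsins and antigens, had 0 and 21616 counts, and 0, 21197 and 65544 counts. *Tpp1*, a tripeptidyl peptidase deficient in a form of neuronal ceroid lipofuscinosis, had 0 and 998 counts, and 49, 0 and 3617 counts. Each gene was at 0 in 1 library of each genotype, and the genotypes overlapped. All 3 genes of this class had a higher fitted level, and the median log2 fold change was 0.94. Without Zeb1WT/ApoeKO replicate 1, 2 were higher and 1 lower, with a median of 0.06.

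Glycosidases remove sugars from glycoproteins and glycolipids. *Hexa*, the α subunit of β-hexosaminidase, which degrades GM2 ganglioside, had the highest mean TPM of the class, 308, through Zeb1∆M/ApoeKO replicate 3, while by the median over libraries *Man2b1* was higher, at 53.2 against 17.0 TPM. It had 351 and 13736 counts, and 0, 0 and 47437 counts. The third Zeb1∆M/ApoeKO library was the highest of all and the other two were at 0. Its log2 fold change came to 0.61 ± 3.82 (SE, adjusted p = 1), and it changed sign in 5 of 13 alternative analyses. The gene lies at chr9:59539540-59565109.

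Lysosomal sialidase, *Neu1*, takes sialic acid off glycoproteins and works in a complex with *Ctsa*. It was at 0 in both Zeb1WT/ApoeKO libraries and had 28, 2808 and 9851 counts in those labelled Zeb1∆M/ApoeKO, or 2.31, 65.7 and 196 CPM (mean 88.0 ± 98.8, SD, n = 3). Against a floor of 3 counts per library in Zeb1WT/ApoeKO, the mean of the Zeb1∆M/ApoeKO libraries was 900-fold higher. That value is a bound for counting error only and not for loss of a gene between libraries. Of all genes at 1000 counts or more in Zeb1WT/ApoeKO replicate 2, 51.5% were at or under the floor in replicate 1. The bound rests mostly on Zeb1∆M/ApoeKO replicate 3 and was 347-fold without it, while Zeb1∆M/ApoeKO replicate 1 alone was 23.6-fold above the floor. The fitted log2 fold change, which depends on the prior count, came to 14.52 ± 8.71 (SE, adjusted p = 1 with edgeR, 0.00324 with DESeq2 and 0.000449 with limma-voom). *Neu1* passed the filter through the genotype in which it was high. It lies at chr17:34931253-34935953, and its promoter window held neither motif. Its partner *Ctsa* overlapped between the genotypes.

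*Man2b1*, lysosomal α-mannosidase, which trims N-linked glycans, had 6292 and 28446 counts, and 39, 2716 and 9798 counts. In CPM it had 228 and 825 (mean 527 ± 423, SD, n = 2), and 3.22, 63.5 and 195 (mean 87.2 ± 98.1, SD, n = 3). The highest Zeb1∆M/ApoeKO library was just under the lowest Zeb1WT/ApoeKO library. The log2 fold change came to −2.59 ± 3.8 (SE, adjusted p = 1) and lay between −6.02 and −1.36 in the 13 alternatives. *Man2b1* was given a fold change because its levels separated the genotypes. Its constant sign with a library left out follows from that choice and is no support. The fold change was −1.36 without Zeb1WT/ApoeKO replicate 2 and −3.98 without Zeb1∆M/ApoeKO replicate 3. The gene lies at chr8:85083270-85098282.

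Several other glycosidases reached 100 counts in 1 or 2 libraries. *Gusb*, β-glucuronidase, had 0 and 3603 counts, and 8, 0 and 2750 counts. *Manba*, β-mannosidase, had 8 and 0 counts, and 29, 2 and 1460 counts. *Naglu*, which degrades heparan sulfate, had 14125 counts in Zeb1∆M/ApoeKO replicate 3 and at most 6 in any other library. *Gla*, α-galactosidase A, the enzyme deficient in Fabry disease, had 6380 counts in Zeb1WT/ApoeKO replicate 2 and at most 7 elsewhere. Such genes are read from a single library, so no genotype pattern can be given for *Naglu* or *Gla*.

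*Glb1*, β-galactosidase, had 464 counts in Zeb1WT/ApoeKO replicate 2 and at most 5 elsewhere. *Gaa*, the acid α-glucosidase that degrades glycogen, had at most 49 counts. *Galc*, which degrades galactosylceramide, had at most 62. These 2 genes were near the floor in most libraries and could not be compared. Of the 5 glycosidases tested, 3 had a higher and 2 a lower fitted level, with a median log2 fold change of 0.61, and −0.86 under upper-quartile normalization. The summed level of the class was 92.7 and 940 TPM, and 2.09, 64.6 and 1470 TPM.

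Among lipid and phosphate hydrolases and their activators, *Psap* had the highest mean TPM, 362. Prosaposin is cleaved into saposins, which present sphingolipids to their hydrolases. It had 3310 and 9038 counts, and 11186, 31563 and 30658 counts. In CPM this was 120 and 262 (mean 191 ± 101, SD, n = 2), and 923, 738 and 610 (mean 757 ± 157, SD, n = 3). *Psap* was thus higher in every Zeb1∆M/ApoeKO library than in either Zeb1WT/ApoeKO library. Its log2 fold change came to 1.99 ± 3.48 (SE, adjusted p = 1), and 1.67 without Zeb1∆M/ApoeKO replicate 1. The gene lies at chr10:60277627-60302597.

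*Pld3*, an endolysosomal nuclease of the phospholipase D family that degrades single-stranded nucleic acids, showed the opposite order. It had 1460 and 14718 counts, and 6, 0 and 0 counts. In CPM this was 52.9 and 427 (mean 240 ± 265, SD, n = 2), and 0.495, 0 and 0. Both Zeb1WT/ApoeKO libraries thus held it well above the floor, and the Zeb1∆M/ApoeKO libraries at or near 0. The log2 fold change came to −10.52 ± 6.33 (SE, adjusted p = 1 with edgeR, 0.0919 with DESeq2 and 7.04e-05 with limma-voom). The fitted value depends on the prior count and on the 6 counts of Zeb1∆M/ApoeKO replicate 1, without which it was −16.2. Like *Neu1*, it passed the filter through the genotype in which it was high. *Pld3* lies at chr7:27532000-27553218.

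*Grn*, progranulin, which is split into granulins in the lysosome, had 151 and 34266 counts, and 2579, 5906 and 58605 counts. *Asah1*, acid ceramidase, had 915 and 6436 counts, and 5, 16276 and 37400 counts. *Ppt1*, which removes palmitate from proteins, had 0 and 25711 counts, and 0, 4302 and 7608 counts. Each of the 3 was lowest in a replicate 1 library, and all overlapped between the genotypes.

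The acid phosphatases were seen mainly in Zeb1WT/ApoeKO replicate 2. *Acp2*, the lysosomal acid phosphatase, had 0 and 10457 counts, and 8, 15 and 1848 counts. *Acp5*, the tartrate-resistant acid phosphatase of osteoclasts and some macrophages, had 0 and 13311 counts, and 0, 0 and 1178 counts. *Smpd1*, acid sphingomyelinase, had 22 counts in Zeb1∆M/ApoeKO replicate 1 and at most 1 elsewhere. It was not detectable at this depth in 4 libraries. Of the 7 genes of this class tested, 3 had a higher and 4 a lower fitted level, and the median log2 fold change was −2.15.

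The membrane of the lysosome was represented by 6 genes. *Cd68*, a glycosylated LAMP-family protein used as a macrophage marker, had the highest mean TPM, 1170. It had 0 and 44664 counts, and 10, 36172 and 46735 counts. The 3 libraries that held it had 1300, 846 and 930 CPM, and both replicates 1 lacked it almost completely although *Lyz2* was high in them. Its log2 fold change came to −0.13 ± 3.12 (SE, adjusted p = 1), and its sign changed in 8 of 13 alternatives. *Cd68* lies at chr11:69664213-69666153.

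*Lamp1*, a main glycoprotein of the lysosomal membrane, had 423 and 9388 counts, and 27, 23019 and 14243 counts. *Lamp2*, its paralog with a role in autophagy, had 1 and 16170 counts, and 17, 19880 and 18523 counts. Both were again low in replicates 1 of both genotypes and overlapped between them. *Cd63*, a tetraspanin of late endosomes, had 8622 and 27022 counts, and 249, 19184 and 23326 counts, and was the only gene of this class at 100 counts or more in all 5 libraries.

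*Scarb2*, the receptor that carries glucocerebrosidase to lysosomes, had 9 and 16155 counts, and 52, 13 and 5540 counts. *Mcoln1*, the calcium channel TRPML1, had 9 and 11356 counts, and 43, 18859 and 14 counts. It was thus high in 1 library of each genotype. Of the 6 genes, 2 had a higher and 4 a lower fitted level, with a median log2 fold change of −0.14, and 0.08 with RLE size factors. Without Zeb1WT/ApoeKO replicate 1, 1 was higher and 5 lower, with a median of −1.03. Without Zeb1∆M/ApoeKO replicate 1, 4 were higher and 2 lower, with a median of 0.4.

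*Tfeb*, the transcription factor of the lysosomal programme, had 11 and 0 counts, and 18, 405 and 0 counts. It was near or at 0 in all but Zeb1∆M/ApoeKO replicate 2, where it had 4.23 TPM. Its log2 fold change came to 4.18 ± 4.63 (SE, adjusted p = 1), and 1.67 without that library. It was 0.48 under upper-quartile normalization and 10.69 without the replicates 1 of both genotypes. The gene lies at chr17:47737030-47792419.

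The 7 genes with TCACGTGA did not share a pattern over the libraries. *Atp6v0e* and *Ctsa* reached 100 counts in all 5 libraries, *Ctsd* and *Atp6v0d1* in the replicates 2 and the third Zeb1∆M/ApoeKO library, and *Mcoln1* in the replicates 2. *Gla* and *Atp6v1a* each reached it in a single Zeb1WT/ApoeKO library. None of the 7 separated the genotypes.

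In the V0 sector, *Atp6v0e*, encoding the small e1 subunit, had the highest mean TPM, 780, through Zeb1∆M/ApoeKO replicate 1, while by the median over libraries *Atp6v0b* was higher, at 597 against 540 TPM. It had 22928 and 17159 counts, and 98831, 33849 and 45919 counts. In CPM this was 830 and 498, and 8160, 791 and 914, so that 1 Zeb1∆M/ApoeKO library lay far above, while replicate 2 lay between the Zeb1WT/ApoeKO libraries. The log2 fold change came to 2.31 ± 2.52 (SE, adjusted p = 1), and 0.11 without Zeb1∆M/ApoeKO replicate 1. *Atp6v0e* lies at chr17:26663231-26699647.

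*Atp6v0b*, a proteolipid of the rotor ring, had 27794 and 15754 counts, and 2, 31317 and 28066 counts. *Atp6v0c*, the main proteolipid of that ring, had 3167 and 9418 counts, and 6, 25069 and 20343 counts. The rotor genes were thus high in 4 libraries and nearly absent from the one in which *Atp6v0e* was highest. *Atp6v0d1*, which links the ring to the central stalk, had 0 and 977 counts, and 14, 217 and 4656 counts. Its paralog *Atp6v0d2*, known from osteoclasts and some macrophages, had 0 counts in all 5 libraries. Of the 4 V0 genes tested, 3 had a higher and 1 a lower fitted level, with a median log2 fold change of 0.99, and −0.87 under upper-quartile normalization.

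In the V1 sector, *Atp6v1f*, encoding the F subunit of the central stalk, had the highest mean TPM, 1830. It had 62032 and 20439 counts, and 16, 22637 and 21627 counts. In CPM this was 2250 and 593 (mean 1420 ± 1170, SD, n = 2), and 1.32, 529 and 430 (mean 320 ± 281, SD, n = 3). The second Zeb1WT/ApoeKO library was just above Zeb1∆M/ApoeKO replicate 2, and the extremes were the replicates 1 of both genotypes. The log2 fold change came to −2.15 ± 2.97 (SE, adjusted p = 1), and −0.15 without those replicates 1. *Atp6v1f* lies at chr6:29467718-29470512.

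*Atp6v1g1*, a peripheral stalk subunit, had 21827 and 6210 counts, and 1, 24223 and 27583 counts. *Atp6v1b2*, the B subunit found in most tissues, which completes the ATP-binding sites, had 14343 and 5130 counts, and 5, 21733 and 3618 counts. Both overlapped between the genotypes. *Atp6v1e1*, which pairs with the G subunit in the peripheral stalk, had 0 and 2466 counts, and 19, 13382 and 21439 counts.

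*Atp6v1a*, the catalytic A subunit, stood apart from the other V1 genes, with 2185 and 6 counts, and 6, 3 and 0 counts. All V1 sectors need this subunit, yet it was above 6 counts in 1 library, in which its level was 34.9 TPM beside 5630 TPM of *Atp6v1f*. The 5 V1 genes together had 100387 and 34251 counts, and 47, 81978 and 74267 counts, of which Zeb1∆M/ApoeKO replicate 1 thus held almost none. Of the 4 tested, 1 had a higher and 3 a lower fitted level, with a median log2 fold change of −0.59. This became −5.81 under upper-quartile normalization, and without Zeb1WT/ApoeKO replicate 1 it turned to 0.82, with 3 higher and 1 lower.

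**Figure D5:**
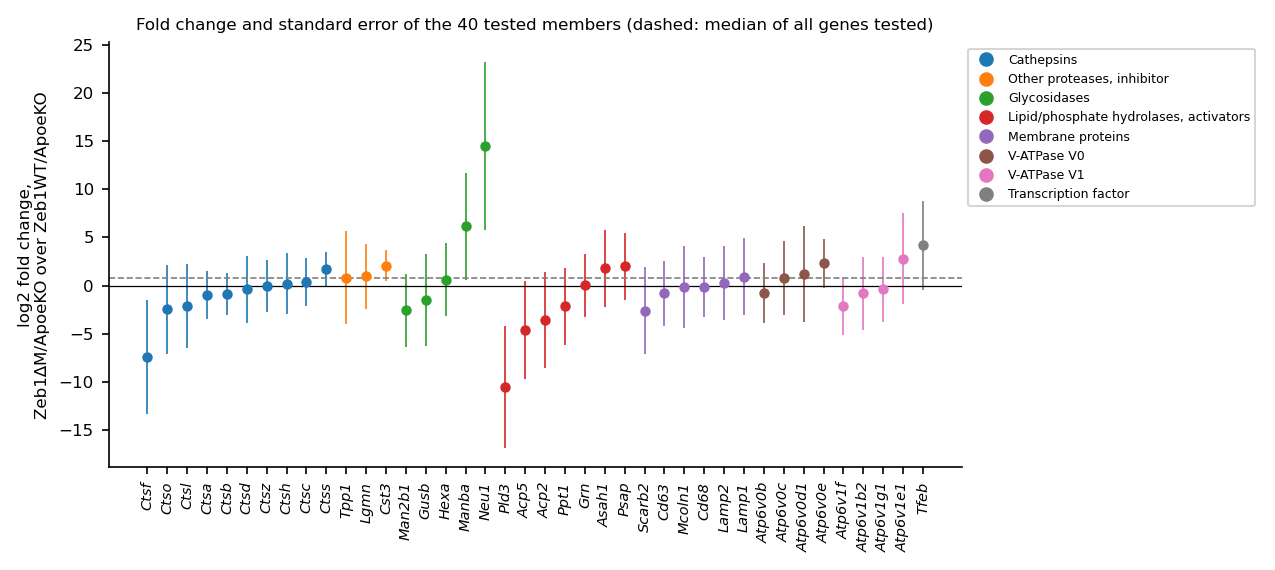
Log2 fold change (y axis, Zeb1∆M/ApoeKO over Zeb1WT/ApoeKO) with its standard error (bars) for the 40 tested lysosomal genes, ordered by class and, within a class, by fold change, with a dashed line at the median of all genes tested, 0.78. No gene passed the test, and *Neu1* (14.52) and *Pld3* (−10.52) lie farthest from 0; the fitted values of these 2 genes depend on the prior count.

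Counts of genes without overlap depended on the libraries included. Without Zeb1∆M/ApoeKO replicate 1, 8 of the 40 members were higher without overlap, beside 13.1% of all genes, and 3 were lower, beside 11.1%. The 8 included *Ctsh*, *Asah1*, *Lamp1*, *Atp6v0c* and *Atp6v1e1* in addition to *Cst3*, *Neu1* and *Psap*. Without Zeb1WT/ApoeKO replicate 1, 5 were higher, beside 13.2%, and 16 lower, beside 26.2%, with a single Zeb1WT/ApoeKO library left. Without Zeb1WT/ApoeKO replicate 2, 12 were higher, beside 17.4%, and 7 lower, beside 12.2%. Leaving out Zeb1∆M/ApoeKO replicate 2 gave 6 higher, beside 15%, and 5 lower, beside 7.46%, and leaving out replicate 3 gave 4 higher, beside 11.5%, and 5 lower, beside 9.04%. *Neu1*, *Psap*, *Cst3*, *Man2b1*, *Pld3* and *Atp6v1f* were without overlap in each of these 5 sets, which follows from their separation in the full set.

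Beyond the 50, 79 other lysosomal genes in the table were read from the same fit. Of 49 tested, 23 had a higher and 26 a lower fitted level, 0 were called, and the median log2 fold change was −0.07. Among 15 further V-ATPase subunits and accessory proteins, 7 were tested, of which 2 were higher and 5 lower, and *Atp6ap2*, an accessory protein of the pump, was lower without overlap in CPM, at 486 and 669 CPM, and 0.0825, 0 and 308 CPM. Of 26 further hydrolases, 19 were tested, of which 8 were higher and 11 lower.

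*Lipa*, the lysosomal acid lipase that hydrolyses the cholesteryl esters of lipoproteins, had 10 and 20792 counts, and 16, 45 and 104 counts. It was thus high in 1 Zeb1WT/ApoeKO library, while the other lay below the whole Zeb1∆M/ApoeKO range in counts. *Npc2*, which carries cholesterol inside the lysosome, had 30 and 18937 counts, and 0, 30950 and 68423 counts. Both were chosen after their values were seen, for their place in lysosomal cholesterol handling. Of the further membrane proteins, 6 of 12 tested were higher and 6 lower. Among sorting factors 3 of 4 were higher, and among regulators 4 of 7. *Sort1*, a sorting receptor, had 0 and 1 counts, and 15, 19077 and 2 counts, so that its lack of overlap rests on counts under the floor.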

How the data were processed

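RNAseq of sorted aortic macrophages was analysed in 2 Zeb1WT/ApoeKO and 3 Zeb1∆M/ApoeKO libraries, grouped by the genotype and replicate number in their labels. The authors prepared cDNA with the SMART-Seq v4 Ultra Low Input kit, mapped reads to GRCm38 with STAR 2.5.3a, quantified genes with RSEM 1.3.0 and GENCODE mouse version 25 (tool versions from the submitters' processing notes), and deposited the counts per gene as whole numbers, without normalization. All 5 columns were used.

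Genes were filtered with filterByExpr (minimum count 10), normalized by TMM and tested with the quasi-likelihood test of edgeR 4.0.16 in R 4.3.3, without covariates, with Benjamini-Hochberg adjustment over all 7905 genes and a threshold of 0.05. The SE of a fold change was its absolute value divided by the square root of the F statistic of that test. It draws on dispersion estimated across genes and is not the spread of the single gene. Log2 CPM, used for the correlation of library pairs, had a prior count of 2. The fitted fold changes used the default prior count of edgeR instead. An exact permutation test for single genes is not reported, since 2 libraries against 3 cannot give a p under 0.1 and separation of the genotypes had chosen the genes. TPM used exon lengths of GENCODE M21, which also gave the coordinates of genes (GRCm38); it lists retained introns, which lower the TPM of some genes. Reads shared between genes were estimated from 75-base stretches of transcripts: 4 members shared over 10%, *Ctsd*, *Ctsl*, *Atp6v1g1* and *Ctsb*, and their counts are less certain. Alternatives were RLE and upper-quartile scaling, no filter, a mean CPM of at least 10, DESeq2 1.42.0, limma-voom (limma 3.58.1) with sample quality weights, a replicate block, each library left out, both replicates 1 left out, and a threshold of 0.1. The bounds for *Neu1* by library were added after seeing the data. Figures used matplotlib 3.10.9.

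Members, lists and tests were chosen with earlier results of these data known. All 50 members are named, and a fold change is given for tested members without overlap between genotypes and for the one with the highest mean TPM in each class.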

Additional observations from a re-analysis of the deposited data

How the results depend on the processing

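With edgeR, no lysosomal gene was called under any scaling, filter, left-out library, the replicate block or a threshold of 0.1. DESeq2 called 790 genes, 1 of them a member, limma-voom 234 genes, 2 of them members, and edgeR without both replicates 1 called 2 genes, no member among them. The replicate numbers paired the libraries by number only, as no source ties them to shared mice: the differences of the 2 pairs correlated at 0.18, and with the replicate block 0 genes were called and the members' median log2 fold change was −1.86. The members' median ranged from −0.63 to 5.22 when each library was left out, the highest without Zeb1WT/ApoeKO replicate 2, and that of all genes from 0.14 to 6.42, the highest without Zeb1WT/ApoeKO replicate 1. Members without overlap numbered 9 to 21 in these sets. Where 1 Zeb1WT/ApoeKO library was left, it was assumed to vary like the others. Setting genes at the floor in a whole genotype to their bound left the medians at −0.08 for the members and 0.78 for all genes.

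Of the 11 genes given with a fold change, 9 kept their direction in all alternatives run. Among them *Cst3*, *Neu1*, *Psap*, *Man2b1*, *Pld3* and *Atp6v1f* had been listed because they separated the genotypes in these libraries. Their constant direction with a library left out largely follows from that choice and is no measure of stability. *Cd68*, at −0.13, was 0.07 with RLE, 0.6 with upper quartile, 0.31 without a filter, 2.7 with the replicate block, 0.06 with DESeq2, 6.88 with limma-voom, and from −1.01 to 17.34 with a library left out. *Hexa*, at 0.61, was −1.04 with upper quartile, −15.91 with the replicate block, −4.12 with limma-voom, and from −15.53 to 4.66 with a library left out. The causes were not tested. *Tfeb* did not pass the filter on mean CPM. Genes at 3 counts or fewer were not detectable at this depth, which does not show their absence.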
